A study of Mus musculus with 12 samples.

Results

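The complement genes described here are the 9 components and regulators C3, C4b, Cfb, Cfi, C1s1, C1ra, Serping1, Cd55 and Masp1, taken by gene symbol from a table of 56941 genes counted in 3T3-L1 cells. All 9 were found once each in the table. Of these, 7 were among the 14810 genes that passed the filter on low counts, and C4b and Cfi did not pass it. Cfb passed only through the Inf libraries. 3T3-L1 is an established mouse embryonic fibroblast line that can be turned into adipocytes, and it was sequenced here as wild-type cells with no adipocyte differentiation named in the labels. The 12 bulk mRNA libraries form 4 groups of 3, all of 1 batch by the labels. The control group is headed untreated in the counts and received none of the cytokines. The IL-4/13 group received IL-4 and IL-13 at 50 ng/mL each. The Inf group received a proinflammatory mixture of IL-17A (50 ng/mL), 20 ng/mL of TNF-α plus 0.5 ng/mL of IL-1β. The IL-4/13 + Inf group received both mixtures, and all groups were cultured for 24 h. The design asks what the type 2 cytokines do to fibroblast gene expression alone and on top of that mixture. The cells are a single line grown without other cell types, and nothing in the labels ties the replicates to separate cultures, so the p-values measure the spread between libraries, which may be technical.

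Complement is a cascade of plasma proteases and their targets that marks surfaces for uptake and lysis. It starts through the classical, the lectin or the alternative pathway. In the classical pathway the C1 complex, which holds the proteases C1r and C1s, cleaves C4 and C2. In the lectin pathway MASP proteases do so, and in the alternative pathway factor B joins cleaved C3. All 3 routes meet at C3, and inhibitors in the fluid and on the cell surface hold them in check. The liver makes most of the circulating proteins, and fibroblasts and other tissue cells make several of the components locally.

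Library totals ran from 13446005 to 20775769 counts. No pair of replicates agreed within sampling noise, and within the Inf group replicate 3 differed most from the others, with a chi-square per degree of freedom of 8.21 and 8.58 against 2.27 to 4.64 for all other replicate pairs. All 10 fibroblast markers were tested. Their summed level was 14750 to 16840 CPM (counts scaled to 1000000 per library) in control, 12800 to 13470 in IL-4/13, 12750 to 13800 in Inf and 10760 to 11020 with both mixtures. The sum hides a split, since all Inf libraries lay above control for Pdgfra, Pdgfrb, Lum and Dcn. They lay below it for Col1a1, Col1a2, Thy1 and Vim, and overlapped it for Col3a1 and Fbn1. Of 10 macrophage markers 5 were tested, Tyrobp was at 0 in every library and Adgre1 and Marco did not exceed 3 counts, while the summed macrophage level was 8.0 to 8.88 CPM in control, 6.16 to 7.72 in IL-4/13, 10.9 to 11.9 in Inf and 7.64 to 10.9 with both mixtures. Of 8 adipocyte markers 2 were tested, Lep was at 0 and Adipoq, Plin1, Cidec and Retn did not exceed 3 counts, and the summed adipocyte level was 19.8 to 24.5 CPM in control, 24.7 to 31.8 CPM in IL-4/13, 45.8 to 49.98 CPM in Inf and 31.3 to 37.1 CPM with both mixtures. The part of these shifts in the complement results was not tested. Endothelial and keratinocyte markers summed to no more than 1.58 and 0.660 CPM.

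The members rose and fell in different combinations with each treatment. A gene was called at an adjusted p below 0.05 with an absolute log2 fold change above 0.25 in edgeR's quasi-likelihood test, with Benjamini-Hochberg adjustment over all tested genes. Cfb entered the test only because it was high in the Inf libraries, so it had to differ there, and the counts that follow are over the other 6 tested members. Against control, Inf raised 4 members, C3, C1s1, C1ra and Serping1, where 16.3% of all tested genes rose, and lowered 2, Masp1 and Cd55, where 15.3% fell. IL-4/13 alone raised C3 and Masp1, 2 members against a background of 2.78%, and lowered C1s1, 1 member against a background of 2.57%. In cells given both mixtures, 5 members rose against control (C3, C1s1, C1ra, Serping1 and Masp1, background 13.4%) and 1 fell (Cd55, background 11.5%). When IL-4/13 + Inf was set against Inf, 2 members rose (C3 and Masp1, background 7.55%) and 3 fell (C1s1, C1ra and Serping1, background 7.00%). The median log2 fold change of the 6 members was 0.13 with IL-4/13, 2.17 with Inf and 1.56 with both against control, and −0.08 for both against Inf, beside medians over all tested genes within 0.01 of 0. These comparisons share control or Inf libraries and are not independent of each other.

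**Figure D1:**
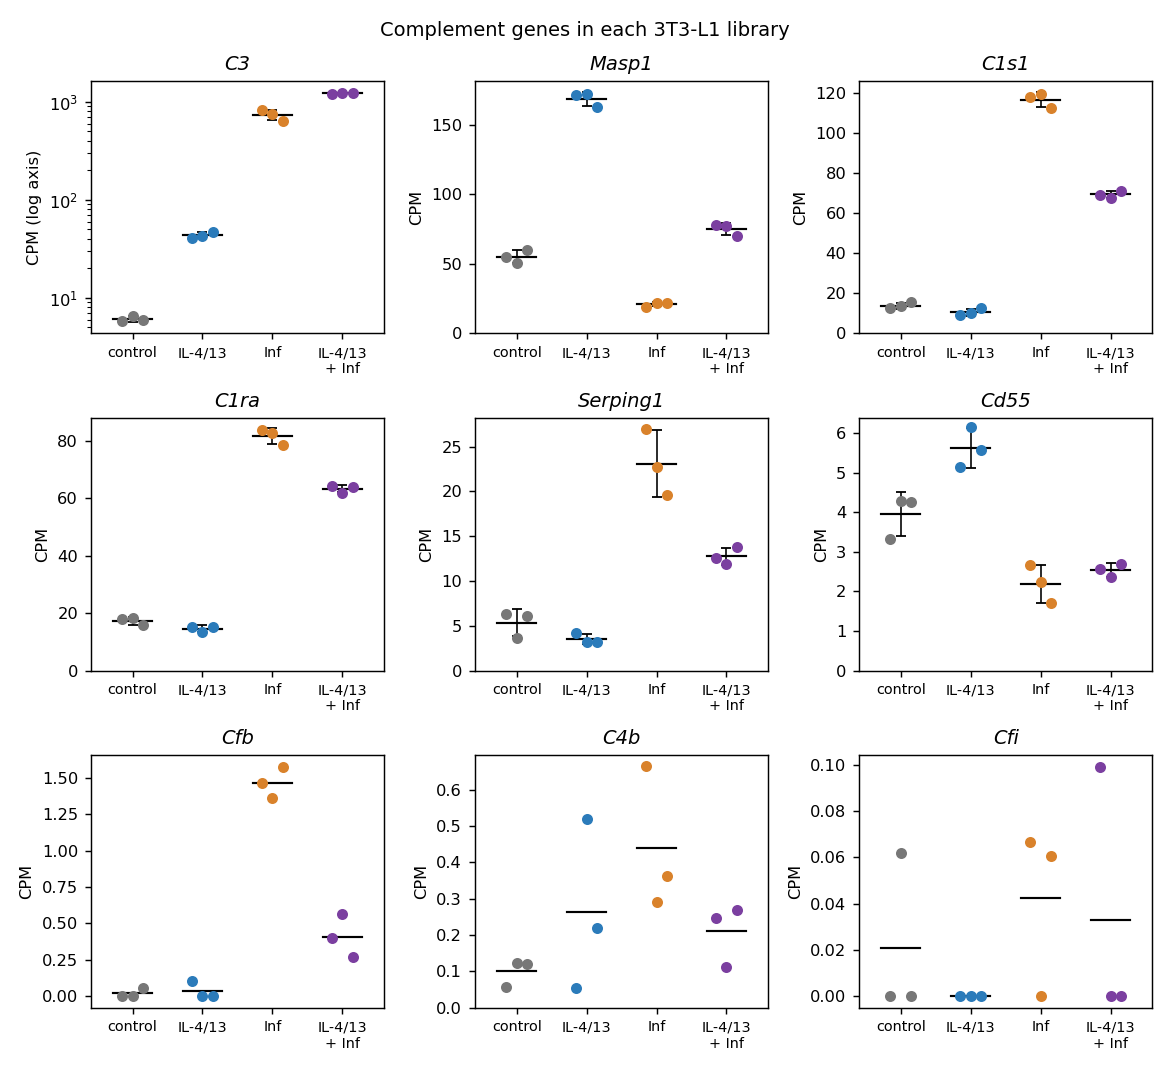
Each panel plots the CPM of 1 complement gene in the 12 libraries by condition, with a log axis for C3 and linear axes for the rest. Points are libraries, horizontal bars are means of 3, and error bars for the upper 6 genes are SDs. C3 rises in each step from about 6.09 to 1223 CPM, Masp1 rises with IL-4/13 and falls with Inf, while C4b does not exceed 10 counts in any library and Cfi does not exceed 2.

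C3, the component on which all 3 activation routes meet, was the member with the largest range. It measured 5.83, 6.57 and 5.88 CPM in control, and 40.8, 43.1 and 47.4 CPM in IL-4/13. It measured 832.5, 745 and 644 CPM under Inf, and 1198, 1223 and 1248 CPM under both mixtures. All libraries of each group lay above all libraries of the group before it, with no overlap between any of the 4 groups, and the Inf group was the most spread. C3 rose 7.16-fold with IL-4/13 (log2 fold change 2.84 ± 0.124 SE, adjusted p = 2.77e-09), 122-fold with Inf (6.93 ± 0.111, adjusted p = 2.06e-15) and 201-fold with both (7.65 ± 0.112, adjusted p = 6.81e-16). Adding IL-4/13 to Inf raised C3 a further 1.65-fold (0.72 ± 0.0726, adjusted p = 7.37e-06). Without Inf replicate 3, whose C3 level was the lowest of its group, that step was 0.63 on the log2 scale and remained called.

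C3 was the member whose log2 response to IL-4/13 was shown to depend on Inf. The difference between its log2 response with Inf and without Inf was −2.12 ± 0.148 SE (95% confidence interval −2.44 to −1.80, adjusted p = 2.02e-06), and it was the 1 member called lower with Inf, where 1.59% of all tested genes were. By edgeR and by DESeq2, 0 members were called higher with Inf, where 1.52% of genes were, and 1 of them (Masp1) had an unadjusted p under 0.05 in edgeR's fit. DESeq2 gave no adjusted p for Cfb and Cd55 in this comparison, and both had fitted differences below 0. On the linear scale the order was the other way, because the gain in C3 from IL-4/13 was 37.7 ± 1.95 CPM (SE) without Inf and 482 ± 56.3 CPM with Inf. The fold and the absolute gain therefore give different rankings of the same 12 values.

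Promoter sequences were read for the members that the RefSeq table of build GRCm38.p6 holds, which were 4 of 9, C3, C1s1, C1ra and Cd55. C3, C1s1 and C1ra are printed because all 3 rose with Inf and because only C3 of them also rose with IL-4/13. Each line gives the 250 bases before the annotated start, on the strand of the gene, with matches to the C/EBP pattern TTNNGNAA on either strand in capitals.
C3, chr17:57228137-57228386, minus strand: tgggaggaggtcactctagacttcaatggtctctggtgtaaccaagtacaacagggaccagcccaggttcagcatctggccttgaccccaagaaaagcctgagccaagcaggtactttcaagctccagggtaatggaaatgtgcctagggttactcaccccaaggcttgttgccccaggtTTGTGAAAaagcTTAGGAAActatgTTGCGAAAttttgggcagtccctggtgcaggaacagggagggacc
C1s1, chr6:124542360-124542609, minus strand: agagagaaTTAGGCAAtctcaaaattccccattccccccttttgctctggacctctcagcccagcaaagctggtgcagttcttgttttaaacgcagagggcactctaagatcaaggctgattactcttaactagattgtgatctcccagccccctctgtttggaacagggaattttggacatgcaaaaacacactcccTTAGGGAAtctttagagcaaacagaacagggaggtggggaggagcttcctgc
C1ra, chr6:124512371-124512620, plus strand: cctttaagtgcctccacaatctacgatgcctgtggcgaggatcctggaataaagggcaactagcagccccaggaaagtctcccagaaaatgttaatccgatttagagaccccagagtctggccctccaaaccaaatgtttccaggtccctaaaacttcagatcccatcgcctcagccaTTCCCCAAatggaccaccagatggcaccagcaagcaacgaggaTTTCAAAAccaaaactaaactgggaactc
C/EBP proteins, STAT6 and NF-κB are transcription factors known to act downstream of IL-17A, of IL-4 and IL-13, and of TNF-α and IL-1β. The C3 window held the C/EBP pattern at 3 positions, beginning 70, 58 and 45 bases before the start, and the last of these matched on both strands. The C1s1 window held it at 242 and 52 bases before the start and the C1ra window at 72 and 29 bases, there on the other strand, and the Cd55 window did not hold it. Of the 27025 promoters in the table, 36.9% held the pattern at least once and 2.66% held it at 3 positions or more. The STAT patterns TTCNNNNGAA, held by 5.86% of promoters, and TTCNNNGAA, held by 7.18%, and the NF-κB consensus, held by 3.75%, had no match in these 4 windows. A match of letters is a description of the window and says nothing of binding in these cells.

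C4b, the classical and lectin pathway component cleaved to form the C3 convertase, was close to the limit of detection. It had 1, 2 and 2 counts in control, 1, 8 and 3 in IL-4/13, 10, 6 and 6 in Inf and 5, 2 and 4 in IL-4/13 + Inf. The Inf libraries all lay above the control libraries, while both groups that received IL-4/13 overlapped the control. The ratio of pooled CPM between Inf and control was 4.25, with an exact 95% interval of 1.57 to 14.4 that covers counting error only. In a fit with no filter on low counts the Inf change did not pass the threshold (log2 fold change 2.03 ± 0.847 SE, adjusted p = 0.0733). C4b shares 35.2% of its 50-base stretches with C4a, which had 14 to 42 counts per library and no call in any comparison. With the counts of C4a and C4b added together, an alternative chosen after seeing the data, the sum changed from 1.28 ± 0.381 CPM (SD, n = 3) in control to 2.14 ± 0.280 CPM in Inf, and this rise was called (log2 fold change 0.73 ± 0.285 SE, adjusted p = 0.039). With IL-4/13 alone the sum was 2.21 ± 0.523 CPM, a change of similar size that was not called (0.76 ± 0.288, adjusted p = 0.107). C4b held only 7.69% of the pooled counts in control and 19.6% in Inf.

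Cfb, the factor B protease of the alternative pathway, was nearly silent without Inf. It had 0, 0 and 1 counts in control and 2, 0 and 0 in IL-4/13. It had 22, 28 and 26 counts in Inf and 8, 10 and 4 in IL-4/13 + Inf. The Inf libraries stood above every other library, and the IL-4/13 + Inf libraries lay between them and the remaining 6 with no overlap. The mean level was 1.47 ± 0.106 CPM (SD, n = 3) under Inf and 0.410 ± 0.147 CPM under both mixtures. The ratio of pooled CPM was 73.4 for Inf against control (exact 95% interval 12.8 to 2940, from 76 and 1 counts) and 21.0 for IL-4/13 + Inf against control (3.39 to 865). Both ratios rest on the 1 read in the control. For IL-4/13 + Inf against Inf the ratio was 0.286 (0.169 to 0.464, from 22 and 76 counts). These ratios are given as a description with no test, since the level in the Inf libraries is what let Cfb pass the filter. In the annotation of build GRCm38, Cfb shares 81.4% of its 50-base stretches with the overlapping gene Gm20547, which had 0 counts in every library. How reads over such overlaps were counted is not given in the sources used here, so the level of Cfb is uncertain.

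C1ra and C1s1, which encode the 2 serine proteases of the C1 complex, rose together with Inf and fell in part when IL-4/13 was added. C1s1 measured 12.5, 13.7 and 15.5 CPM in control and 9.22, 10.2 and 12.6 CPM in IL-4/13. With Inf it measured 118, 119.7 and 113 CPM, and with IL-4/13 + Inf 69.2, 67.9 and 71.4 CPM. The 2 groups with Inf stood apart from each other and from the rest, whereas the highest IL-4/13 library reached into the control range. C1s1 rose 8.41-fold with Inf (log2 fold change 3.07 ± 0.0786 SE, adjusted p = 4.08e-24) and 5.0-fold with both (2.32 ± 0.0801, adjusted p = 7.81e-21). Adding IL-4/13 to Inf lowered it to 0.594 of the Inf level (−0.75 ± 0.0655, adjusted p = 4.09e-10). IL-4/13 alone lowered it to 0.759 of control (−0.40 ± 0.101, adjusted p = 0.00964). That last call was lost without control replicate 3 (adjusted p = 0.0934), IL-4/13 replicate 1 (0.131) or IL-4/13 replicate 2 (0.0507).

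C1ra measured 18, 18.2 and 15.7 CPM in control and 15.3, 13.4 and 15.2 CPM in IL-4/13. It measured 83.7, 82.8 and 78.6 CPM under Inf and 64.2, 61.9 and 64.1 CPM under both mixtures. The 4 groups did not overlap, although the gap between control and IL-4/13 was under 1 CPM. C1ra rose 4.72-fold with Inf (2.24 ± 0.0706 SE on the log2 scale, adjusted p = 9.34e-22) and 3.66-fold with both (1.87 ± 0.0714, adjusted p = 1.01e-19), and adding IL-4/13 to Inf lowered it to 0.776 of the Inf level (−0.37 ± 0.0615, adjusted p = 4.15e-05). With IL-4/13 alone its log2 fold change was −0.24 ± 0.0839 and was not called (adjusted p = 0.074), though without control replicate 3 it was −0.31 (adjusted p = 0.0387). The log2 response to IL-4/13 differed with Inf by −0.13 for C1ra (95% confidence interval −0.34 to 0.09) and by −0.35 for C1s1 (−0.60 to −0.10), and neither passed the threshold (adjusted p = 0.673 and 0.118).

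C1ra and C1s1 each have a near-identical neighbour, so the split of reads between copies is uncertain. C1ra shares 48% of its 50-base stretches with C1rb, and C1s1 shares 24.3% with C1s2. C1rb measured 6.42 ± 1.00, 5.22 ± 0.601, 31.4 ± 0.971 and 21.1 ± 0.832 CPM (SD, n = 3) in control, then IL-4/13, then Inf, then both. C1s2 measured 1.66 ± 0.296, 1.78 ± 0.438, 18.5 ± 3.07 and 10.7 ± 0.470 CPM in the same order. Both copies rose with Inf and fell when IL-4/13 was added to it, as the members did. The member took 72.3 to 75.0% of the pooled counts of C1ra and C1rb in the 4 groups and 85.2 to 89.3% of those of C1s1 and C1s2. With each pair added together, a step chosen after seeing the data, the Inf rise was 4.76-fold for C1ra with C1rb and 8.70-fold for C1s1 with C1s2. Calls that were absent for the single genes appeared for the sums. The sum of C1ra and C1rb fell with IL-4/13 alone (log2 fold change −0.26 ± 0.0699 SE, adjusted p = 0.0181), and the response of C1s1 with C1s2 to IL-4/13 was lower with Inf (−0.42 ± 0.107, adjusted p = 0.0192).

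**Figure D2:**
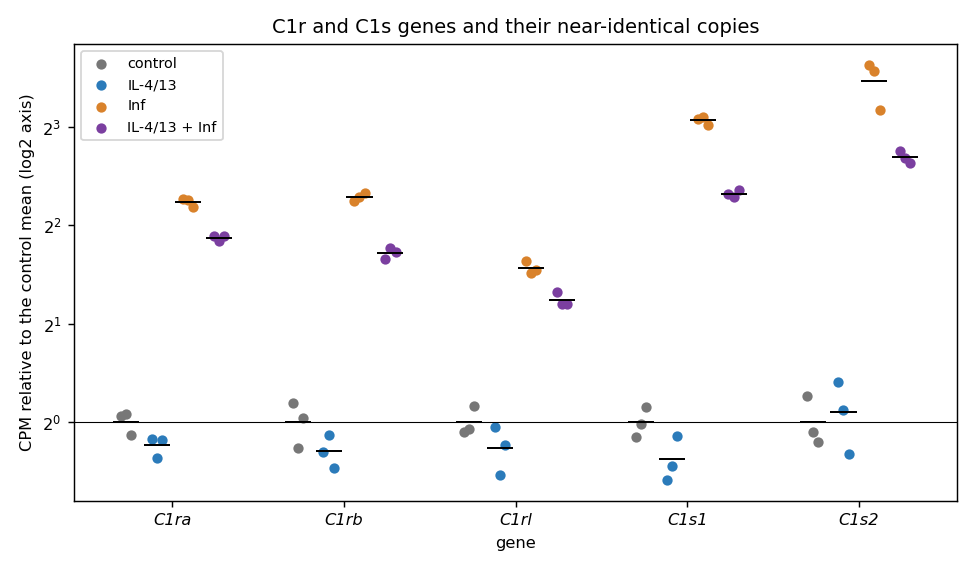
Levels of C1ra, C1s1 and related genes are plotted as CPM divided by the control mean of the same gene, on a log2 axis, with points for libraries, colours for conditions and bars for means of 3. In Inf, C1ra lies at 4.54 to 4.83 and C1s1 at 8.11 to 8.61 times the control mean, and C1rb, C1rl and C1s2 show the same order of conditions within the 2 groups that received Inf.

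Masp1, a protease gene of the lectin pathway whose alternative transcripts also encode MASP-3 and a non-protease form, rose with IL-4/13 as C3 did and fell with Inf, where C3, C1s1, C1ra and Serping1 rose. It measured 55.1, 50.6 and 60.1 CPM in control and 171, 172 and 163 CPM in IL-4/13. It measured 19.2, 22.1 and 21.6 CPM under Inf and 78.2, 77.3 and 70.3 CPM under both mixtures. None of the 4 groups overlapped, and the IL-4/13 + Inf libraries lay between control and IL-4/13. Masp1 rose 3.05-fold with IL-4/13 (log2 fold change 1.61 ± 0.0613 SE, adjusted p = 1.13e-18) and fell to 0.381 of control with Inf (−1.39 ± 0.0712, adjusted p = 1.95e-16). With both it rose 1.36-fold against control (0.45 ± 0.0628, adjusted p = 8.42e-07) and 3.58-fold against Inf (1.84 ± 0.0696, adjusted p = 1.39e-18). Its log2 response to IL-4/13 was 0.23 higher with Inf than without (95% confidence interval 0.04 to 0.42), which did not pass the threshold (adjusted p = 0.217), while the gain in CPM was 113 ± 3.98 (SE) without Inf and 54.3 ± 2.68 with Inf. Counts per gene do not separate its transcripts, so which of its products these values stand for is not known.

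Serping1, which encodes the C1 inhibitor that inactivates C1r, C1s and the MASP proteases, followed the course of C1ra and C1s1. It measured 6.29, 3.597 and 6.12 CPM in control and 4.18, 3.24 and 3.23 CPM in IL-4/13. It measured 27.0, 22.7 and 19.6 CPM under Inf and 12.6, 11.9 and 13.8 CPM under both mixtures. The groups with Inf stood apart from each other and above the rest, and control and IL-4/13 overlapped through control replicate 2, the lowest control library. Serping1 rose 4.30-fold with Inf (log2 fold change 2.10 ± 0.153 SE, adjusted p = 2.79e-11) and 2.37-fold with both (1.25 ± 0.162, adjusted p = 8.2e-07), and adding IL-4/13 to Inf lowered it to 0.551 of the Inf level (−0.86 ± 0.135, adjusted p = 3.82e-05). With IL-4/13 alone its log2 fold change was −0.58 ± 0.199 and was not called (adjusted p = 0.076), but it was called without control replicate 2 (−0.78, adjusted p = 0.00435), without Inf replicate 1 (adjusted p = 0.0422) or Inf replicate 3 (0.0335), and in DESeq2 (0.0376).

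Cd55, the membrane-bound decay accelerating factor that takes C3 convertases apart, was the member that fell in both groups with Inf. It measured 3.31, 4.28 and 4.26 CPM in control and 5.14, 6.16 and 5.59 CPM in IL-4/13. It measured 2.66, 2.24 and 1.70 CPM under Inf and 2.58, 2.36 and 2.70 CPM under both mixtures. The IL-4/13 libraries were the highest, the control libraries lay below them without overlap, and the 2 groups with Inf overlapped each other below the control. Cd55 fell to 0.557 of control with Inf (log2 fold change −0.85 ± 0.206 SE, adjusted p = 0.00127) and to 0.645 with both (−0.63 ± 0.201, adjusted p = 0.0144). The second call was lost without control replicate 2 (adjusted p = 0.0611), control replicate 3 (0.0579) or IL-4/13 + Inf replicate 2 (0.0587). With IL-4/13 alone its log2 fold change was 0.51 ± 0.184 and was not called (adjusted p = 0.0867). The change when IL-4/13 was added to Inf was 0.21 (95% confidence interval −0.23 to 0.66, adjusted p = 0.54). Cd55 had 28 to 96 counts per library. Cd55 shares 10.9% of its 50-base stretches with Cd55b, which did not exceed 2 counts.

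Cfi, the factor I protease that cleaves and inactivates C3b and C4b, was not detectable at this depth. It had 0, 1 and 0 counts in control, 0 in every IL-4/13 library, 1, 0 and 1 in Inf and 2, 0 and 0 in IL-4/13 + Inf. No library reached 3 counts, the number that a count of 0 allows. The same depth gave 10630 to 24148 C3 counts in each library that received Inf.

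The order of the members by level per length changed with the treatment. Levels were divided by the union of annotated exons of each gene, in CPM per kb, since genes can be compared with each other only per length. For Masp1 that union is 9833 bases and the longest transcript 5345. For Cd55 they are 4853 and 3133 bases, and for Serping1 2325 and 1768. The levels per kb of these 3 genes, and with them the order, therefore depend on the length used. In control C1ra (5.81) and Masp1 (5.62) were highest and overlapped, followed by C1s1 (4.44), Serping1 (2.29), C3 (1.19) and Cd55 (0.814), each below all libraries of the gene before it. In IL-4/13 Masp1 (17.2) and C3 (8.51) led, ahead of C1ra (4.91), C1s1 (3.40), Serping1 (1.53) and Cd55 (1.16), again without overlap. In Inf the order was C3 (144), C1s1 (37.3), C1ra (27.4), Serping1 (9.94) and Masp1 (2.13), and Cfb (0.519) and Cd55 (0.453) overlapped below them. In IL-4/13 + Inf it was C3 (238), C1s1 (22.2), C1ra (21.3), Masp1 (7.65), Serping1 (5.48), Cd55 (0.525) and Cfb (0.145), with no neighbours overlapping. There the lowest C1s1 library (21.7) and the highest C1ra library (21.5) were close. How reads on their shared stretches were counted is not known, so the order of these genes is uncertain. With the exon union as the length, C3 thus went from the fifth place in control to the first in both groups with Inf.

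**Figure D3:**
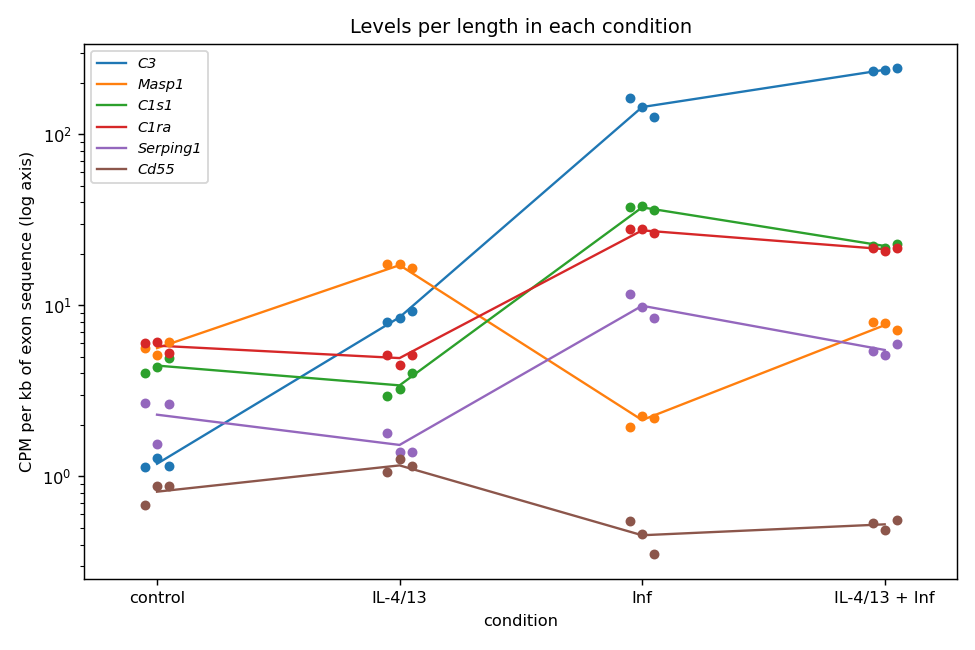
Levels of 6 complement genes are plotted as CPM per kb of exon sequence on a log axis for the 4 conditions, with points for libraries and lines joining the means of 3. C3 goes from 1.19 in control to 238 in IL-4/13 + Inf, and Masp1 lies at 17.2 with IL-4/13 and at 2.13 with Inf.

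The response of each member to IL-4/13 was set out without and with Inf. C3 and Masp1 rose in both settings. C1s1 fell in both, and C1ra and Serping1 fell with Inf present and had fitted changes below 0 without it. Cd55 was called in neither setting, and its interval with Inf spans 0. For Cfb the change without Inf rests on 3 reads and its interval also spans 0 (95% confidence interval −2.23 to 3.92). In CPM the falls were larger with Inf present, at −47.4 ± 2.36 (SE) against −3.25 ± 1.32 for C1s1, −18.3 ± 1.72 against −2.67 ± 1.01 for C1ra and −10.4 ± 2.21 against −1.78 ± 0.925 for Serping1. These falls started from higher levels in Inf than in control. On the log2 scale the response of Serping1 differed with Inf by −0.28 (95% confidence interval −0.78 to 0.22), which was not called in edgeR's fit (adjusted p = 0.686). As single genes, C1s1 and C1ra were not called for this difference either.

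**Figure D4:**
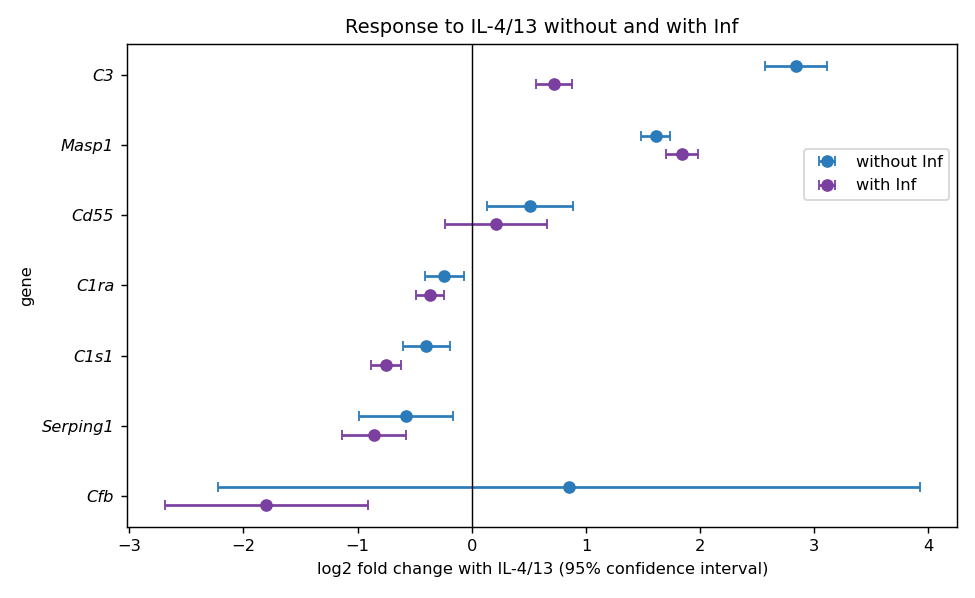
The log2 fold change with IL-4/13 is plotted for the 7 tested complement genes without Inf (IL-4/13 against control) and with Inf (IL-4/13 + Inf against Inf), with 95% confidence intervals from the fit. The C3 intervals, 2.57 to 3.11 and 0.57 to 0.88, lie apart, and the interval of Cfb without Inf runs from −2.23 to 3.92. Cfb passed the filter only through its level in the Inf libraries, so its interval with Inf is a description and no test.

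A wider list of 52 other complement genes placed the members in their pathways. Of these, 17 were tested, 18 were at 0 counts in every library and 11 more did not exceed 3 counts. Among genes that recognise targets, C1qa, C1qb, C1qc, Mbl1 and Mbl2 were at 0, Fcna had 1 to 12 counts and Colec12 had 3712 to 6191 counts per library. Of the tested genes, 7 rose with Inf against the background of 16.3% and 0 fell by edgeR or DESeq2, although 1 (C1qbp, log2 fold change −0.14) had an unadjusted p under 0.05 in edgeR's test and also passed after adjustment (adjusted p = 0.031), short of the fold threshold. With IL-4/13 alone 0 rose by edgeR or DESeq2, although 4 had an unadjusted p under 0.05, and 1 fell, beside backgrounds of 2.78% and 2.57%. With both mixtures 6 rose and 1 fell against control, beside 13.4% and 11.5%, and against Inf 1 rose and 4 fell, beside 7.55% and 7.00%. For the difference in response 0 were called in either direction by edgeR or DESeq2, and 3 (Colec12, Cd46 and C1s2) were lower with Inf at an unadjusted p under 0.05 in edgeR's test. The median log2 fold change of the 17 was −0.02 with IL-4/13, 0.51 with Inf, 0.42 with both and −0.22 for both against Inf.

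Among the proteases of the wider list, C1s2 rose with Inf in all 3 libraries above every control library, as did C1rb and C1rl. C1s2 rose 11.04-fold, C1rb 4.87-fold and C1rl, a C1r-like protease gene, 2.95-fold, and C1rl was not called when IL-4/13 was added to Inf (log2 fold change −0.32, adjusted p = 0.0559). Masp2, the lectin pathway protease, was not called in any comparison. Among receptors, Itgb2, the β chain of complement receptor 3 in leukocytes, changed from 1.198 ± 0.254 to 4.22 ± 0.989 CPM (SD, n = 3) with Inf (adjusted p = 1.39e-06), and it was 2.53 ± 0.320 CPM in IL-4/13 + Inf. Its fall against Inf (adjusted p = 0.024) was lost without Inf replicate 3 (0.172) or IL-4/13 + Inf replicate 3 (0.0905). Its partner chain Itgam did not exceed 1 count. The summed macrophage markers also rose with Inf, and with both mixtures their sum overlapped the control range. Among the tested macrophage markers, Mrc1 and Aif1 lay above control in all Inf libraries, while Cd68, Csf1r and Lyz2 overlapped it. With both mixtures the sum hides a split, since Mrc1 and Aif1 again lay above control in all libraries. Csf1r lay below control there, and Cd68 and Lyz2 overlapped it. Such cells as a source of Itgb2 were not tested. C3ar1, the receptor for the C3a fragment, rose from 1.14 ± 0.546 CPM with Inf alone to 2.60 ± 0.963 CPM with both (adjusted p = 0.00824), a call that was lost without IL-4/13 + Inf replicate 3 (0.0831). Cd93 rose 2.66-fold with Inf and 2.28-fold with both.

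Of the regulators outside the members, Clu and Cd59a were called with Inf. Clu, the fluid-phase inhibitor clusterin, fell with IL-4/13 from 4.601 ± 1.23 to 2.64 ± 0.591 CPM (SD, n = 3; adjusted p = 0.0113) and rose with Inf to 8.31 ± 0.865 CPM (adjusted p = 1.97e-04). The fall was lost without control replicate 1 (adjusted p = 0.13), IL-4/13 replicate 1 (0.0554) or IL-4/13 replicate 3 (0.073), and its rise with both against control (0.0257) was lost without control replicate 2 (0.193) or IL-4/13 + Inf replicate 3 (0.11). Cd59a, which blocks the membrane attack complex, rose 1.33-fold with Inf (adjusted p = 0.00671). The Crry gene Cr1l measured 23.8 to 27.3 CPM as a group mean and Cd46 1.17 to 2.09 CPM, and neither was called in any comparison. Colec12, a collectin on the cell surface, was lowered to 0.834 of the Inf level when IL-4/13 was added (log2 fold change −0.26, adjusted p = 4.11e-05), close to the fold threshold, and without Inf replicate 2 it was −0.24. Against control it was −0.25 with both, a call that was lost without control replicate 1 (−0.23), Inf replicate 2 (−0.25) or IL-4/13 + Inf replicate 1 or 2 (both −0.24).

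Each tested member was set beside the 3 tested genes outside the complement lists whose log2 CPM correlated most with it over the 12 libraries. Pearson's r is given as a description, since the libraries share 4 treatments and every gene that follows them correlates. C3 was closest to Ccl2 (r = 0.997), Map3k8 and Ampd3. C1s1 was closest to P4ha2 (0.997), Ptx3 and Ssbp3, and C1ra to Lrrc8d (0.999), Nfkbiz and En1. Serping1 was closest to Col5a3 (0.992), Tnxb and Mocs1, Masp1 to Enpp3 (0.990), Chrdl1 and Wwc1, Cd55 to Stxbp5 (0.974), Fam131b and AW551984, and Cfb to Bnip3l (0.980), Gtf3c5 and Ccng2.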

How the data were processed

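Bulk RNA of 12 3T3-L1 libraries was measured, 3 for each of 4 treatments. The deposited values are raw counts per gene, made by the authors from stranded mRNA libraries, and the submitters' processing notes name STAR, featureCounts and build GRCm39, with no versions. The annotation and the counting of shared or overlapping reads are not given in the sources used here. The 9 members and the lists were chosen with earlier results of these data known. All 12 libraries entered 1 edgeR 4.0.16 quasi-likelihood fit by group in R 4.3.3 (filterByExpr, at least 10 counts; TMM; Benjamini-Hochberg over 14810 genes; called at adjusted p under 0.05 and absolute log2 fold change over 0.25). CPM are counts scaled to 1000000 by the TMM-adjusted total of tested genes. SE is the log2 fold change divided by the square root of F. Exon lengths and shared 50-base stretches came from GENCODE transcripts of build GRCm38, and promoters from RefSeq. Ratios of few reads carry exact 95% intervals, which cover counting error only. On simulated counts with 195 genes changed by 1 on the log2 scale, the fit recovered 79.5% for IL-4/13 against control. Named genes were every member, wider-list genes that were called, and the 3 closest genes to each member, with uncalled genes of the wider list named after their values were seen. Alternatives were DESeq2 1.42.0, other scalings, filters and thresholds, a replicate block, the compared libraries alone and each library left out.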

Additional observations from a re-analysis of the deposited data

Results flagged for a closer look

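The response of C3 to IL-4/13 differed between cells with and without Inf by the interaction test of edgeR's fit, at −2.12 on the log2 scale (adjusted p = 2.02e-06). Its log2 fold change was 2.84 without Inf and 0.72 with Inf, and all 3 libraries with IL-4/13 were above all 3 without it in both settings. No group was large enough for a test of single outlying libraries.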

How the results depend on the processing

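The number of members called kept within 1.5 times its value under 106 of 109 alternatives across the 5 comparisons. These counts include Cfb, which had to differ in Inf because it passed the filter only through those libraries. With the compared libraries alone in the fit, 5 members were called for IL-4/13 against control (C1s1, C3, Cd55, Masp1 and Serping1). Over all 13958 genes of that fit 444 rose and 448 fell. At a log2 fold change threshold of 1 the count for IL-4/13 + Inf against Inf was 2 (Cfb and Masp1), beside 133 genes up and 105 down of 14810. Leaving out each library in turn gave 2 to 4 members for IL-4/13, 7 for Inf, 6 to 7 for both against control, 6 for both against Inf and 1 to 2 for the difference in response, where C1s1 joined C3 without IL-4/13 replicate 1 (−0.46, adjusted p = 0.0472). Over all 15099 to 15161 genes of those fits, 326 to 437 rose and 258 to 442 fell for IL-4/13. For Inf 2295 to 2478 rose and 2137 to 2324 fell, and for both against control 1910 to 2053 and 1557 to 1740. For both against Inf the ranges were 977 to 1189 and 821 to 1092, and for the difference in response 159 to 331 and 183 to 322. Of the members' fold changes, 643 kept their direction and call, 11 gained a call, 6 lost one and 2 changed sign. Both sign changes were of Cfb without IL-4/13 replicate 1, which holds both reads of that group. Over the libraries left out, its log2 fold change ran from −1.87 to 2.73 for IL-4/13 against control and its difference in response from −4.53 to 0.071. For Cfb, DESeq2 gave no adjusted p for IL-4/13 against control, for both mixtures against Inf and for the difference in response. For Cd55 it gave none for the difference in response. The replicate numbers did not pair the libraries, since deviations of same-numbered libraries correlated at −0.15 to 0.05 and 0 of 12 libraries correlated best with their own number. With the replicate block, 3, 7, 7, 6 and 1 members were called in the 5 comparisons, and it changed no call. Over all 14810 genes that fit called 388 up and 329 down, 2382 and 2237, 1939 and 1671, 1090 and 979, and 197 and 213, in the same order. C4b, Cfi and Cfb had few counts at this depth, and for C4b and Cfb the counting of reads on shared stretches is also not known.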
